A study of Mus musculus with 6 samples.

Results

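Short structured noncoding RNAs work inside cells as the folded core of enzymes and particles, and their levels were followed here in primary mouse keratinocytes with and without iASPP, the inhibitor of p53 encoded by *Ppp1r13l*. The set comprised 10 genes, chosen by name from the 55367 gene names of the count table: *Rmrp*, *Rpph1*, *Rn7sk*, *Rn7s1*, *Rn7s2*, *Terc*, *Rnu3a*, *Rnu11*, *Rnu12* and *Bc1*. Keratinocytes came from skin of day 2 pups of a mixed C57BL/6 and 129/Sv background and carried *Ppp1r13l*flox/flox;Cre+ERT, with exon 8 of *Ppp1r13l* flanked by loxP sites and a tamoxifen-dependent Cre made from the *Gt(ROSA)26Sor* locus. Each of 3 batches (1 to 3) held a culture that received tamoxifen 24 h after plating (iASPP KO) and a culture that did not (iASPP WT), both kept for 4 days, which gave 3 libraries per group. Both groups thus carried the floxed allele and Cre, and because only iASPP KO cultures met tamoxifen, effects of the drug and of the deletion cannot be told apart. RNA was depleted of ribosomal RNA without selection for poly(A) tails, fragmented, converted to cDNA, selected for a size near 300 bp and sequenced as single reads of 42 bases.

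These RNAs fall into groups by what they do. The RNAs of RNase MRP (*Rmrp*) and RNase P (*Rpph1*) are catalytic cores of related enzymes that cut precursors of ribosomal and transfer RNA, and U3 (*Rnu3a*) is a C/D box small nucleolar RNA (snoRNA) needed for the first cuts of the ribosomal RNA precursor. The 7SK RNA (*Rn7sk*) holds the elongation kinase P-TEFb inactive together with HEXIM and LARP7 proteins, the 7SL RNA (*Rn7s1*, *Rn7s2*) is the scaffold of the signal recognition particle, and *Terc* carries the template of telomerase. U11 and U12 (*Rnu11*, *Rnu12*) recognise the rare introns removed by the minor spliceosome, and BC1 (*Bc1*) is a rodent RNA derived from a transfer RNA, best known as a translational repressor of neurons. RNA polymerase III makes *Rmrp*, *Rpph1*, *Rn7sk*, 7SL and *Bc1*, whereas polymerase II makes *Rnu3a*, *Rnu11*, *Rnu12* and *Terc*.

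The RNAs were 134 to 423 bases long, so which of their bases could yield a counted read bears on each value. A window was taken here as any 42 consecutive bases of an RNA, and it was called countable when it occurred in no annotated transcript elsewhere and touched no exon of another gene on the same strand, since reads aligned to several places or shared by overlapping genes were not counted by the authors. Sequences are those of GENCODE vM21 transcripts on GRCm38. All 240 windows of *Rmrp* (chr4:43492783-43493063, minus strand) and all 382 of *Terc* (chr3:96414437-96414859, minus strand) were countable, as were 164 of 173 of *Rnu3a* (chr10:40258467-40258680, plus strand) and 89 of 93 of *Rnu11* (chr4:132270080-132270213, minus strand). An exon of *Ccdc107* runs antisense across 124 bases of *Rmrp*, and a predicted gene, *Gm28872*, lies antisense to all of *Rnu11*. Counting was by strand, *Gm28872* had no count and *Ccdc107* had 422 to 645 counts per library. For *Rpph1* (chr14:50807449-50807767, minus strand) bases 36 to 268 lie in an exon of *Ccnb1ip1* on the same strand, which left 10 of 278 windows, all within its last 51 bases. For *Rn7sk* (chr9:78175303-78175633, minus strand) 200 of 290 windows also occur among 8 other genes, and the 90 countable windows lie in bases 201 to 331. The RNAs of these last 2 genes are shown because their counts rest on the stretch printed in capitals, which is covered by countable windows. For *Rpph1* the print starts at base 220 and for *Rn7sk* at base 132, and both run to the 3' end.
Rpph1: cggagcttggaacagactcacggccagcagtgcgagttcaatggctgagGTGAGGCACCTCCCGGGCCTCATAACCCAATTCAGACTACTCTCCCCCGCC
Rn7sk: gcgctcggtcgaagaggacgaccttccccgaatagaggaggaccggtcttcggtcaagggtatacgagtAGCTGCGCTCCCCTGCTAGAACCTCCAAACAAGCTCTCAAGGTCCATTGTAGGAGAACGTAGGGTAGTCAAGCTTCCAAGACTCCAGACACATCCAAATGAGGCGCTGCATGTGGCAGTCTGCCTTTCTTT

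None of the 259 windows of *Rn7s1* (chr12:69159295-69159594, plus strand) or *Rn7s2* (chr12:69361182-69361481, minus strand) was countable, because both RNAs are identical over all 300 bases and recur in other genes. Of *Rnu12* (chr15:83149644-83149794, plus strand) 28 of 110 windows were countable, the others occurring among 3 predicted genes. Of *Bc1* (chr7:144914470-144914637, plus strand) 82 of 127 windows were countable, and those that were not start in its first 45 bases, the transfer RNA-like part that rodent ID repeats share.

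**Figure D1:**
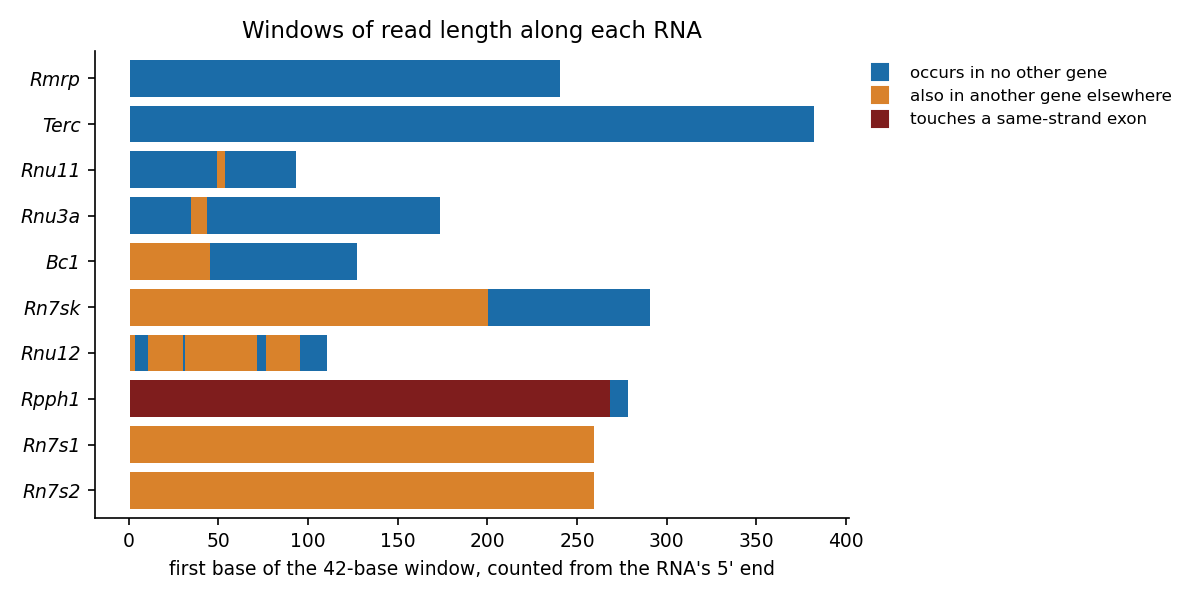
Windows of 42 bases along each RNA, placed by their first base from the 5' end on the horizontal axis, with 1 bar per gene. Blue windows occur in no other gene, orange windows occur in another gene elsewhere and dark red windows touch an exon of another gene on the same strand; *Rpph1* keeps 10 countable windows of 278 and the 7SL genes keep none.

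The RNAs that differed between the groups are shown with their known elements, and *Rnu12* beside *Rnu11*, its partner in the minor spliceosome. Capitals mark letters found by a search of the RNA strand alone. They are the C box TGATGA in *Rnu3a* at base 156, the Sm-like site ATTTTT in *Rnu11* at base 88 and in *Rnu12* at base 75, and in *Bc1* an A-box-like GCNNAGNGG at base 16 and a B-box-like GGTTCG at base 57, the elements by which polymerase III genes of this type are read from within. The matches do not overlap one another. Of 5718 short noncoding RNA genes, 17.7% held the C box letters, 13.9% the Sm-like letters, 9.22% the A-box-like letters and 0.595% the B-box-like letters, and a match is not proof of a working site.
Rnu3a: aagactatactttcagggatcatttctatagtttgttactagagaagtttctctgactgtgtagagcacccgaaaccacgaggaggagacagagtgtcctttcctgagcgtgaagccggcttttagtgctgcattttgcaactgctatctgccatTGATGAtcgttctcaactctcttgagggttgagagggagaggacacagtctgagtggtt
Rnu11: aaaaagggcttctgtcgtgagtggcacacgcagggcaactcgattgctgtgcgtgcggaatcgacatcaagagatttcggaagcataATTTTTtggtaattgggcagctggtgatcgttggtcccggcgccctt
Rnu12: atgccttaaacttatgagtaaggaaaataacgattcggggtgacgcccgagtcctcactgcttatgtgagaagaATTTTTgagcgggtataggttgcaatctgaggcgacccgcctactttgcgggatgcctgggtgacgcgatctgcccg
Bc1: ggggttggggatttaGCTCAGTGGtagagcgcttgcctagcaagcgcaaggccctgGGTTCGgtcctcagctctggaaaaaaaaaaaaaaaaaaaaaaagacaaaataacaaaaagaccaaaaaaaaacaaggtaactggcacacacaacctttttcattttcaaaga

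Libraries held 20202517 to 25157117 counts. As a check of the labels, *Ppp1r13l* (chromosome 7, 19359749 to 19378533) had 320, 395 and 139 counts in iASPP KO batches 1 to 3 and 697, 1100 and 472 in iASPP WT, a log2 fold change of -1.45 (SE 0.184, adjusted p = 0.00296 from edgeR's quasi-likelihood fit, adjusted by the Benjamini-Hochberg method over 14916 genes). All 11 keratinocyte markers listed were detected, none passed the test, and their summed level was 29265 to 32465 CPM (counts per 1000000) in iASPP KO and 30468 to 35896 CPM in iASPP WT. Other cells were present at low level: 8 fibroblast markers summed to 54.2 to 626 CPM in iASPP KO and 52.1 to 817 in iASPP WT (2 of 8 fell, *Col1a2* and *Col3a1*), 6 melanocyte markers to 430 to 1063 and 367 to 1120, and 8 leukocyte markers to 65.1 to 79.7 and 43.5 to 63.6 (*Csf1r* rose, *Cd3e* was at 0). The part of these cells in the differences below was not tested, and in bulk RNA a change in the number of cells of one type cannot be told apart from a change in RNA per cell.

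Together the 10 RNAs took 6.67% to 8.75% of all counts of a library, nearly all of it from 4 genes. In iASPP KO they took 8.75%, 7.76% and 8.69% in batches 1 to 3, and in iASPP WT 6.67%, 8.55% and 6.74%. The share was thus larger in iASPP KO in batches 1 and 3, by 2.08 and 1.95 percentage points, whereas the difference was -0.790 points in batch 2, so the groups overlapped. *Rmrp* was the gene with the most counts in the whole table and took 3.78% ± 0.201 of counts (SD, n = 3) in iASPP KO and 3.49% ± 0.722 in iASPP WT. *Rn7sk* came second with 2.95% ± 0.376 and 2.76% ± 0.455. *Rnu3a* took 1.29% ± 0.614 and 0.710% ± 0.174, and *Rpph1*, from its 51 countable bases, 0.350% ± 0.0555 and 0.348% ± 0.0771. The other 6 genes together took 0.0317%, 0.0286% and 0.0213% in iASPP KO and 0.0121%, 0.0137% and 0.00821% in iASPP WT, without overlap between the groups, and nearly all of this was *Bc1*. Over the same libraries the snoRNA genes outside the set took 3.18% to 5.38% of counts and protein-coding genes 80.5% to 85.5%.

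**Figure D2:**
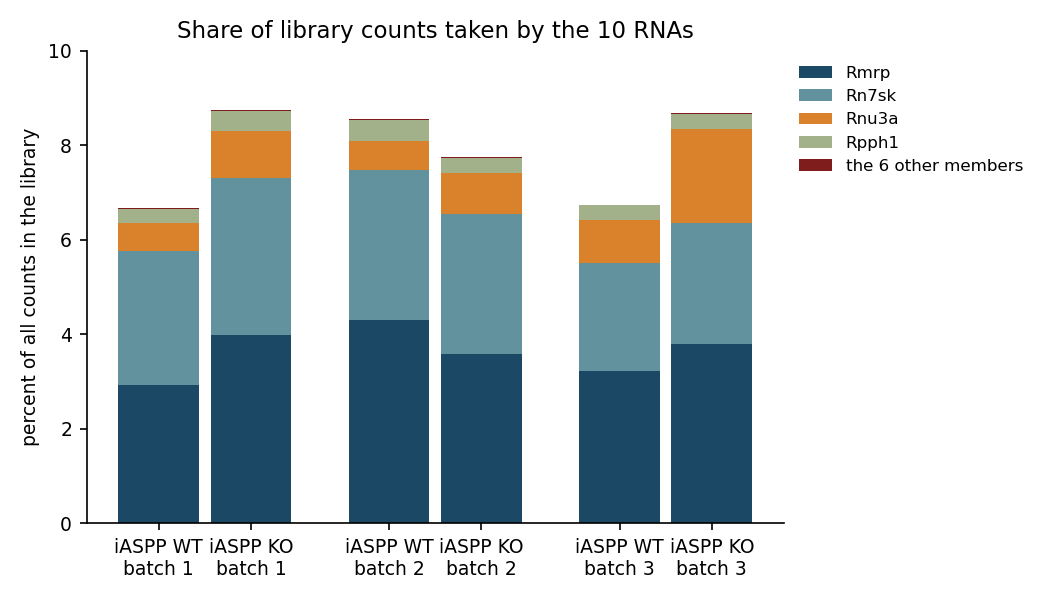
Percent of all counts in a library (vertical axis from 0) taken by the 10 RNAs, stacked by gene, with iASPP WT and iASPP KO of each batch side by side. *Rmrp* and *Rn7sk* form most of each bar, and the total is larger in iASPP KO in batches 1 and 3 (8.75% against 6.67% and 8.69% against 6.74%) but not in batch 2 (7.76% against 8.55%).

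Of the 10 genes, 8 passed the filter on low counts and 3 of these were higher in iASPP KO at an adjusted p below 0.05: *Bc1*, *Rnu11* and *Rnu3a*. None was lower, none was lower at an unadjusted p below 0.05, and DESeq2 called 2 higher and 0 lower. Without batch in the model none of the 8 passed edgeR's test (lowest adjusted p = 0.973), and the same 3 genes had an unadjusted p below 0.05. That fit called 0 of all 14916 genes in either direction, and 691 had an unadjusted p below 0.05, so it does not set these RNAs apart. With batch in the model, 2.17% of all 14916 genes tested by edgeR were called higher in iASPP KO and 4.12% in either direction. At an unadjusted p below 0.05, 1292 of them were higher and 1206 lower. DESeq2 called 483 higher and 410 lower of 12121 genes. The median log2 fold change was 0.54 over the 8 genes and 0.01 over all genes. All 3 batches had the same direction for 5 of the 8 genes and for 39.3% of all genes tested. The 5 were *Bc1*, *Rnu11*, *Rnu3a* and *Rnu12*, higher in iASPP KO, and *Terc*, lower. *Terc* was nearly level in batch 3, with a log2 fold change of -0.0009.

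*Bc1* had the smallest p of the set. Its level, in CPM scaled by TMM factors, was 321, 291 and 178 in iASPP KO batches 1 to 3 and 110, 134 and 62.3 in iASPP WT. Every iASPP KO library lay above every iASPP WT library, although batch 3 was lowest in both groups. The groups also lay apart for *Rnu3a* and *Rnu11*. The share of all tested genes with such a separation is not given here, so it does not set these RNAs apart. The fitted log2 fold change was 1.39 (SE 0.125, 95% interval 1.11 to 1.67, adjusted p = 0.00109 by edgeR), and the single batches gave 1.54, 1.12 and 1.52. The neighbouring gene in the same direction, *LTO1*, which starts 463 bases downstream, had a log2 fold change of -0.02 (SE 0.168, adjusted p = 0.965 by edgeR), and *Gm39119* on the other side had no count. Because BC1 is known from neurons, markers of neurons and Schwann cells were read beside it. Of 9 such genes 4 passed the filter and none passed the test. Their summed level was 97.8 to 120 CPM in iASPP KO and 123 to 138 CPM in iASPP WT, almost all from *Tubb3*, and *Snap25*, *Syp*, *Syt1* and *Rbfox3* averaged 0 to 0.357 CPM in either group.

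The profile of *Bc1* over the 6 libraries was most like those of *P2ry2*, *Sde2* and *Atp6v1a* among 14908 other genes, with Pearson correlations of log2 CPM of 0.996, 0.996 and 0.995. These correlations are descriptive, since 6 libraries in 3 batches and 2 groups supply all of their points. Of these genes *Atp6v1a* also passed the test, with a log2 fold change of 0.60 (adjusted p = 0.0172 by edgeR).

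The minor spliceosome RNAs of the set, U11 and U12, were both detected, at very different levels. Other RNAs of that particle are not covered here. *Rnu11* stood at 23.2, 9.79 and 18.1 CPM in iASPP KO and 8.53, 5.99 and 8.33 CPM in iASPP WT. The lowest iASPP KO library, of batch 2, was only a little above the highest iASPP WT library. Its log2 fold change was 1.10 (SE 0.226, 95% interval 0.59 to 1.60, adjusted p = 0.0260 by edgeR), with 1.44, 0.70 and 1.11 in the single batches. Without batch 1 it no longer passed, with a log2 fold change of 0.92 and an adjusted p of 0.183 by edgeR. *Rnu12* had 46, 24 and 43 counts in iASPP KO and 28, 9 and 28 in iASPP WT. It was higher in the iASPP KO library of each batch, yet the groups overlapped, and with so few counts the log2 fold change of 0.88 had an interval from -0.72 to 2.49 (SE 0.721, adjusted p = 0.625 by edgeR). Counts of *Rnu11* were 6.50 to 16.2 times those of *Rnu12* within a library, a ratio that also reflects the 28 countable windows of *Rnu12* against 89. None of 12 tested genes for proteins of the minor spliceosome passed edgeR's test (0 at an unadjusted p below 0.05 and 0 by DESeq2), and *Snrnp48*, the most abundant, had a log2 fold change of -0.28 (SE 0.153, adjusted p = 0.416 by edgeR).

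*Rnu3a* was the third RNA that passed. It stood at 10878, 9207 and 18729 CPM in iASPP KO and 5987, 6413 and 8191 CPM in iASPP WT. The groups did not overlap, and batch 3 was highest in both. The log2 fold change was 0.86 (SE 0.131, 95% interval 0.57 to 1.15, adjusted p = 0.00739 by edgeR), with 0.86, 0.52 and 1.19 in the single batches, and DESeq2 gave 0.86 with an adjusted p of 0.178. The other U3 genes had far lower counts and did not pass: *Rnu3b1*, at 1974 to 3601 counts per library, had a log2 fold change of -0.10 (SE 0.131), and *Rnu3b2*, *Rnu3b3* and *Rnu3b4* had -0.36, -0.25 and -0.47. The 9 windows of *Rnu3a* that were not countable occur in these *Rnu3b* genes, whose own countable windows were not worked out. Their counts therefore cannot be set against those of *Rnu3a* as amounts of RNA. The difference between *Rnu3a* and its relatives was not tested. None of 10 tested genes of the U3 particle and processome passed edgeR's test (0 at an unadjusted p below 0.05 and 0 by DESeq2), among them *Nop58*, a core protein of C/D box snoRNAs, at -0.24 (SE 0.123, adjusted p = 0.364 by edgeR).

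**Figure D3:**
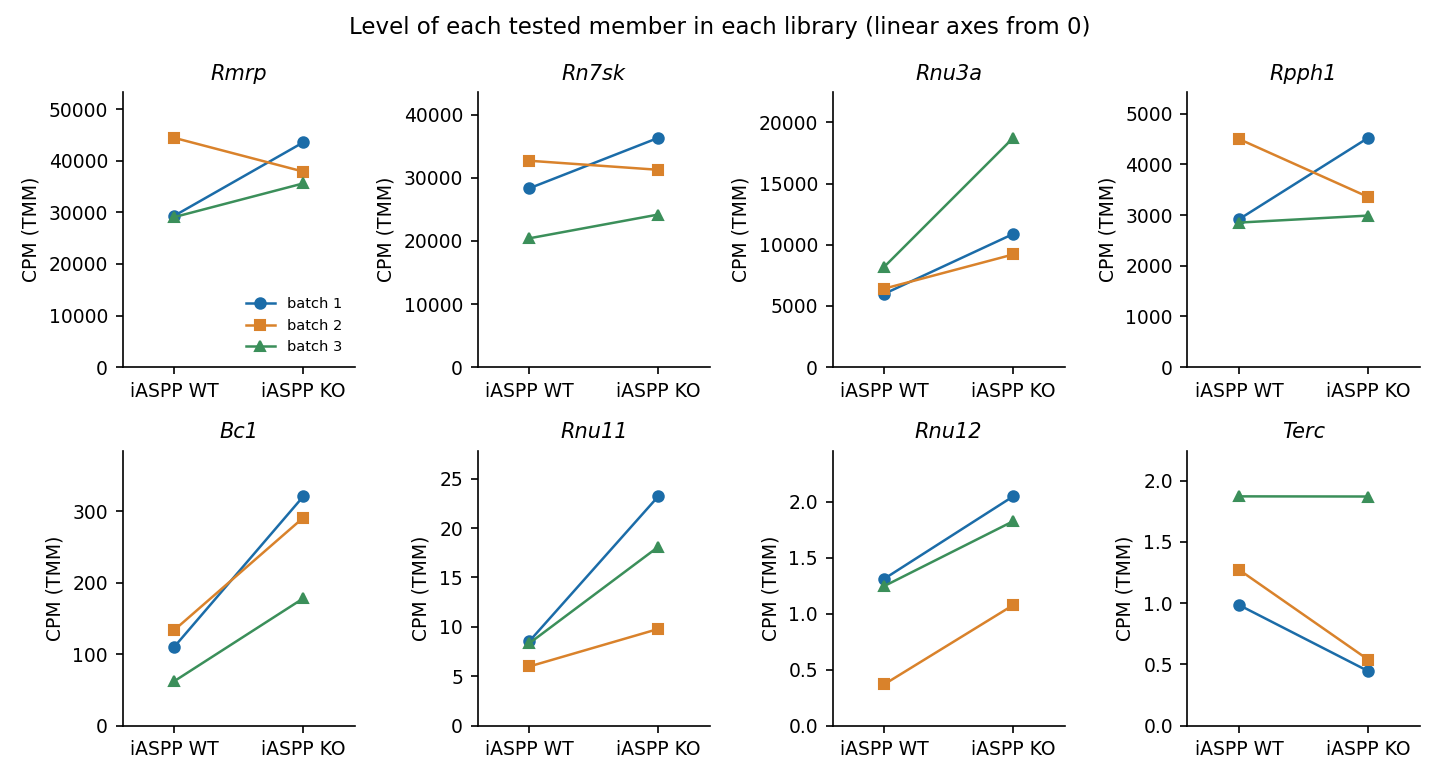
Level of each of the 8 tested RNAs in each library, in CPM (counts per 1000000) scaled by TMM factors (vertical axes linear and from 0), with a line from iASPP WT to iASPP KO for each batch. All 3 lines rise for *Bc1*, *Rnu11*, *Rnu3a* and *Rnu12*, whereas batch 2 falls for *Rmrp*, *Rn7sk* and *Rpph1*.

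*Rmrp* and *Rn7sk*, the RNAs with the most counts, did not pass the test, and neither did *Rpph1*. *Rmrp* stood at 43563, 37889.6 and 35609 CPM in iASPP KO and 29333, 44427 and 29078 CPM in iASPP WT. Batch 2 ran against the other two, and the groups overlapped. Its log2 fold change was 0.21 (SE 0.140, 95% interval -0.10 to 0.52, adjusted p = 0.525 by edgeR). *Rn7sk* stood at 36318, 31259 and 24175 CPM in iASPP KO and 28325, 32695 and 20407 CPM in iASPP WT, again with batch 2 lower in iASPP KO. Its log2 fold change was 0.18 (SE 0.109, 95% interval -0.06 to 0.42, adjusted p = 0.478 by edgeR). *Rpph1* stood at 4526, 3359 and 2992 CPM in iASPP KO and 2920, 4502 and 2853 CPM in iASPP WT, with a log2 fold change of 0.09 (SE 0.170, 95% interval -0.28 to 0.47, adjusted p = 0.850 by edgeR), which changed sign to -0.17 without batch 1. The 3 intervals leave room for a change of up to 0.52 on the log2 scale and leave out one as large as that fitted for *Rnu3a*. When the libraries were scaled by short structured RNA genes alone, all 3 fell below 0, as given with the alternatives.

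*Rmrp* had 9.63 to 11.9 times the counts of *Rpph1*, the RNA of the related enzyme, in the 6 libraries. *Rn7sk* had 7.15 to 9.70 times the counts of *Rpph1*. Whether the ratio within the enzyme pair was steadier than for other pairs of genes was not tested. The ratio of *Rmrp* to *Rn7sk* ran from 1.04 to 1.47. The ratio of *Rnu3a* to *Rmrp* was 0.250, 0.243 and 0.526 in iASPP KO against 0.204, 0.144 and 0.282 in iASPP WT. In each batch, then, the U3 ratio was larger in iASPP KO. The genes most like *Rmrp* over the 6 libraries were *Ephx1*, *Gm13219* and *Cox6c*, with correlations of 0.993, 0.990 and 0.988, and none of them passed the test. Genes beside these RNAs were also read. *Ccdc107*, *Parp2* and *Cilk1*, which overlap or flank *Rmrp*, *Rpph1* and *Rn7sk*, had log2 fold changes of 0.12, -0.19 and 0.72 and did not pass, with adjusted p-values of 0.793, 0.633 and 0.297 by edgeR. *Ccnb1ip1*, which shares 233 exon bases with *Rpph1*, had 4 to 119 counts per library and a log2 fold change of -1.21 (SE 0.660, adjusted p = 0.411 by edgeR).

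*Terc* had few counts, and 7SL could not be counted. *Terc* had 10, 12 and 44 counts in iASPP KO and 21, 31 and 42 in iASPP WT, a log2 fold change of -0.77 (SE 0.772, 95% interval -2.48 to 0.95, adjusted p = 0.706 by edgeR), so a change was not detectable at this depth. It was lower in iASPP KO in batches 1 and 2 and at 1.87 CPM in both libraries of batch 3. *Rn7s1* had no count in any library, and *Rn7s2* had 4 counts in each library of batch 3 and 0 in the other libraries. A count of 0 allows a level of up to 0.119 to 0.148 CPM, which covers counting error only, and since no window of 7SL was countable it says nothing of how much 7SL the cells held.

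**Figure D4:**
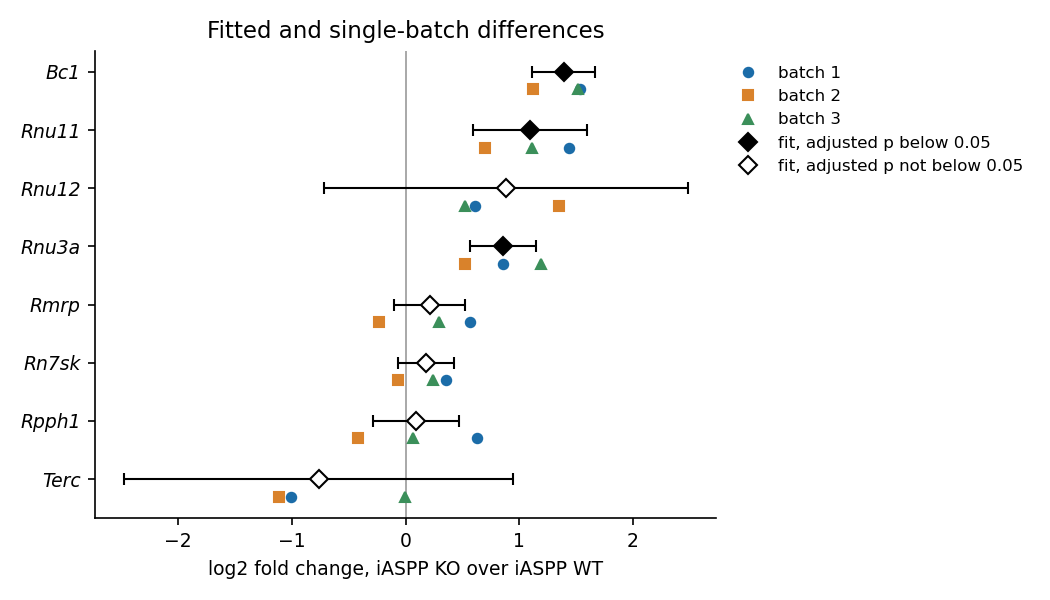
Log2 fold change of iASPP KO over iASPP WT for the 8 tested RNAs (horizontal axis). Diamonds with bars give the fit and its 95% interval, filled where the adjusted p was below 0.05, and coloured points give each batch. *Bc1*, *Rnu11*, *Rnu3a* and *Rnu12* lie above 0 in every batch. Of all genes tested, 39.3% had the same direction in every batch.

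By length-scaled level, in CPM per kilobase averaged over the 6 libraries, the order was *Rmrp* at 130427 ± 23701 (SD, n = 6), *Rn7sk* at 87200.3 ± 17605, *Rnu3a* at 46265 ± 21895, *Rpph1* at 11051 ± 2462, *Bc1* at 1088 ± 613, *Rnu11* at 92.0 ± 50.5, *Rnu12* at 8.70 ± 3.93 and *Terc* at 2.75 ± 1.48. The order held in all 6 libraries for each pair of neighbours except *Rn7sk* with *Rnu3a* and *Rnu12* with *Terc*, which were each reversed in 1 library. The full length was used for scaling, so *Rpph1*, *Rn7sk*, *Rnu12* and *Bc1*, with part of their bases countable, are understated to different degrees. *Rpph1* had 10 countable windows and *Rn7sk* 90, against 240 for *Rmrp*. The order is therefore one of counts per annotated length and does not rank the amounts of these RNAs in the cells.

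Among the tested RNAs of the set, the shorter ones had the more positive log2 fold changes. The 4 tested RNAs of 134 to 214 bases had log2 fold changes of 0.86 to 1.39, and the 4 of 281 to 423 bases had -0.77 to 0.21. This split was noticed after the values were seen, so other genes annotated as short structured RNAs were placed in length classes, the 10 genes left out. Of 54 tested genes of up to 100 bases, 13 were higher in iASPP KO and the median log2 fold change was 0.79. Of 103 genes longer than 100 and up to 150 bases, 32 were higher, and the median was 1.02. Of 41 genes longer than 150 and up to 250 bases, 4 were higher, with a median of 0.34. Of 24 genes longer than 250 and up to 500 bases, 1 was higher, with a median of 0.18. The median was thus not highest in the shortest class, and length was not separated from the type of RNA. The cDNA was selected for size when the libraries were made, and the part of that step in the differences was not tested. By annotated type, 39 of 139 tested snoRNA genes outside the set were higher and 0 lower by edgeR (57 and 0 by DESeq2, and 84 and 1 at an unadjusted p below 0.05).

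**Figure D5:**
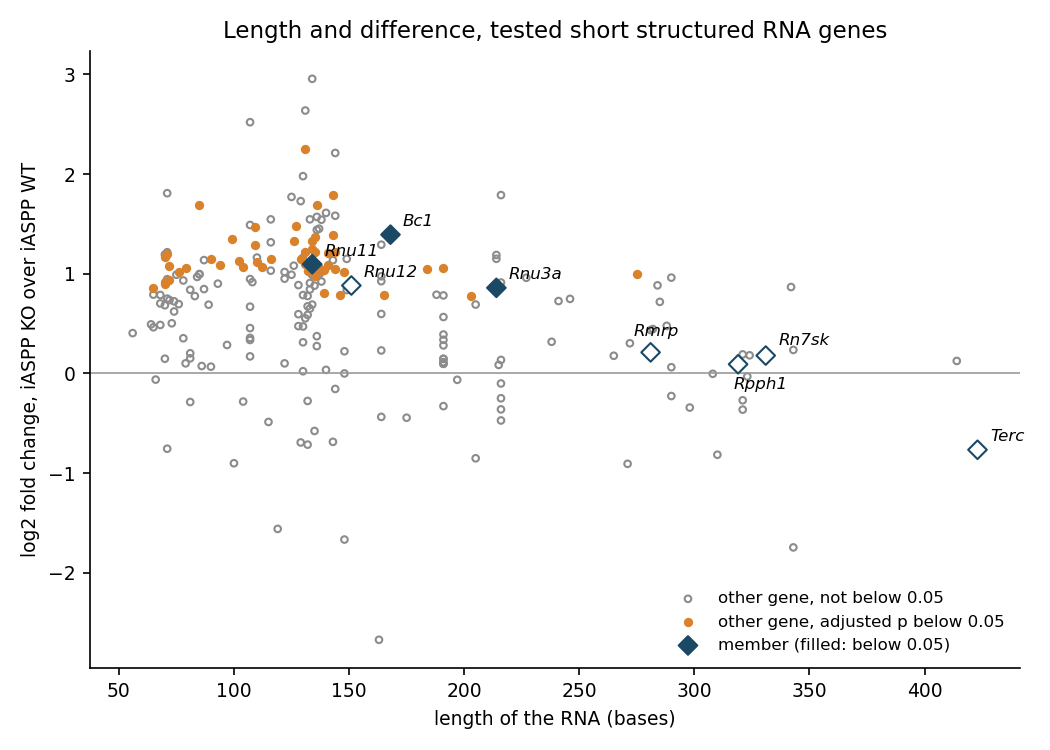
Length of the RNA in bases (horizontal axis) against the log2 fold change of iASPP KO over iASPP WT (vertical axis) for tested short structured RNA genes of up to 500 bases. Diamonds are the 8 tested RNAs of the set, filled where the adjusted p was below 0.05, and orange points are other genes past that threshold; called genes are densest between 100 and 150 bases, and *Rmrp*, *Rpph1* and *Rn7sk* lie near 0.

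A list of 30 other short structured RNAs gave 19 tested genes, of which 5 rose and none fell (0 lower at an unadjusted p below 0.05 and 0 by DESeq2), with a median log2 fold change of 0.15. The Y RNAs *Rny1* and *Rny3*, partners of the Ro60 protein, had log2 fold changes of 1.07 (SE 0.217) and 1.13 (SE 0.200), with adjusted p-values of 0.0244 and 0.0142 by edgeR. The vault RNA *Vaultrc5*, 143 bases long, had 1.39 (SE 0.228, adjusted p = 0.00980 by edgeR). *Snord118*, the U8 snoRNA of ribosomal RNA processing, had 1.36 (SE 0.186, adjusted p = 0.00431 by edgeR), and *Scarna13*, a guide RNA of Cajal bodies 275 bases long, had 0.99 (SE 0.168, adjusted p = 0.0118 by edgeR). None of these 5 passed without batch in the model (adjusted p = 0.973 by edgeR for each) or when scaled by short structured RNA genes alone (adjusted p = 0.200 to 0.636 by edgeR). *Rny1* did not pass with DESeq2 (adjusted p = 0.0859), nor *Scarna13* without batch 2 (adjusted p = 0.0616 by edgeR). *Rprl3*, a ribonuclease P RNA-like gene with 33872 to 58372 counts per library, had -0.23 (SE 0.168, adjusted p = 0.581 by edgeR), and *Scarna2* and *Scarna6* had 0.13 and 0.18.

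Among genes for proteins that bind, make or process these RNAs, 113 in 9 lists were tested, 1 fell and none rose. Their median log2 fold change was -0.07, beside 0.01 over all genes. At an unadjusted p below 0.05, 2 were higher and 7 lower, and DESeq2 called 0 higher and 1 lower. Over all 14916 genes, 1292 were higher and 1206 lower at an unadjusted p below 0.05. DESeq2 called 483 higher and 410 lower of 12121. The gene that fell was *Ro60*, whose ring-shaped protein binds Y RNAs and misfolded small RNAs. It averaged 60.0 ± 4.40 CPM (SD, n = 3) in iASPP KO and 83.8 ± 7.36 CPM in iASPP WT, a log2 fold change of -0.48 (SE 0.115, adjusted p = 0.0476 by edgeR), with -0.51, -0.45 and -0.47 in the single batches. Without batch in the model its adjusted p was 0.973 by edgeR, and without batch 1 or batch 2 it was 0.231 or 0.237 by edgeR.

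None of the 11 proteins of RNase P and MRP passed, nor any of 7 genes of the 7SK particle and P-TEFb, 9 of the signal recognition particle and its receptor, 9 of telomerase and H/ACA particles, 23 of RNA polymerase III and its factors, or 21 of small nuclear RNA promoters and 3' processing. At an unadjusted p below 0.05 these lists held 2 genes that were higher and 3 that were lower, and DESeq2 called 0. The most abundant gene of each list had *Rpp14* at -0.16 (SE 0.120), *Ccnt1*, the cyclin of P-TEFb, at -0.03 (SE 0.112), *Srp14* at 0.33 (SE 0.112), *Nhp2* at 0.15 (SE 0.142), *Gtf3c1*, of the factor that binds the B box, at -0.11 (SE 0.110) and *Ints11*, the nuclease of the Integrator complex, at 0.15 (SE 0.134). *Pabpc1*, the poly(A)-binding protein that also binds BC1, averaged 205 ± 24.0 CPM in iASPP KO and 173 ± 2.34 CPM in iASPP WT, a log2 fold change of 0.24 (SE 0.117, adjusted p = 0.345 by edgeR).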

How the data were processed

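RNA of 3 iASPP KO and 3 iASPP WT keratinocyte cultures was analysed. Per the labels and the study's methods, the authors trimmed reads with Cutadapt 2.10, aligned them to GRCm38 with STAR 2.7.3 and the GENCODE vM25 annotation, and deposited counts of reads per gene name on exons, by strand, from featureCounts 2.0.0, without normalization. The deposited table of the authors' own comparison was not used here.

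Counts were tested here with edgeR 4.0.16 (filterByExpr by group, minimum count 10, TMM, glmQLFit and glmQLFTest with batch and condition, Benjamini-Hochberg adjustment, threshold 0.05) in R 4.3.3, and with DESeq2 1.42.0 as an alternative. The SE is the absolute log2 fold change divided by the square root of F, and single-batch values used a prior count of 2. The labels give a batch to each culture, and same-batch cultures deviated together from their group means (correlations 0.302, 0.368 and 0.568). The sources do not say that batches came from separate animals, so p-values measure the spread between these cultures. Cultures of one condition differed by far more than sampling noise (chi-square per gene 35.4 to 147).

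All 10 genes were named, as were genes overlapping or flanking them, the called and the most abundant gene of each partner list, and the 3 genes most correlated with *Bc1* and *Rmrp*. Length classes, *Rnu3b* genes, *Rprl3*, *Scarna2*, *Scarna6* and the marker genes were named after their values were seen. The genes and lists were chosen with earlier results of these data known. Gene types and sequences come from GENCODE vM21, which held 53365 of 55367 names. Trimmed reads shorter than 42 bases and copies outside annotated transcripts were not considered in the windows. Scripts were tested on simulated data. Reads carried no molecular tags, so limits from depth speak to counting error alone. Python 3.11.15 with pandas 2.3.3 and matplotlib 3.10.9 made the figures.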

Additional observations from a re-analysis of the deposited data

How the results depend on the processing

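With 9 to 46 counts in a library, *Terc* and *Rnu12* had wide intervals, and 3 libraries per group limit every estimate. Without a replicate block, that is with condition alone in the model, 0 of the RNAs passed, at log2 fold changes of 1.37 for *Bc1*, 1.16 for *Rnu11* and 0.91 for *Rnu3a* (adjusted p = 0.973 by edgeR for each), 0 partner genes were lower and *Ppp1r13l*, at -1.38, did not pass either (adjusted p = 0.973 by edgeR). Of all 14916 genes, 0 were called higher and 0 lower by that fit. With DESeq2 *Rnu3a* did not pass, at 0.86. Leaving out 1 batch in turn gave 0.92 to 1.29 for *Rnu11*, -0.17 to 0.35 for *Rpph1*, which was negative without batch 1, and 0 to 4 partner genes lower. With total counts alone as the scaling 2 partner genes were lower. Scaling by short structured RNA genes alone was added after the values were seen. It moved the median of all 14916 genes to -0.75 on the log2 scale, with 9 genes called higher and 1373 lower. No member was then called: *Bc1* was at 0.63, *Rnu11* at 0.33, *Rnu3a* at 0.10, *Rmrp* at -0.55, *Rn7sk* at -0.58 and *Rpph1* at -0.67, all above that median (lowest adjusted p = 0.0504 by edgeR). Of 113 partner genes 8 were lower. Under the other scalings, the filters and robust dispersion *Bc1*, *Rnu11* and *Rnu3a* all passed, and apart from the scaling by short structured RNAs *Bc1* passed in all 12 fits with the batch term. Of the genes outside the set, *Rny1*, *Rny3*, *Vaultrc5*, *Snord118* and *Scarna13* did not pass without a replicate block or under the scaling by short structured RNA genes, *Ro60* without a replicate block or without batch 1 or 2, *Rny1* with DESeq2 or robust dispersion, and *Scarna13* without batch 2. The cause of these changes was not tested. The share of counts taken by the 10 RNAs differed by 1.08 percentage points on average within batches and by 0.581 to 2.02 when 1 batch was left out.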
